A study of Mus musculus with 6 samples.

Results

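Gpr18, Gpr183, S1pr1, S1pr4, P2ry10, Gpr174, Gpr171 and Gpr132 are G protein-coupled receptors of lymphocytes, most of them with ligands that are lipids or derived from cholesterol. They were taken by gene symbol from the platform annotation, which named 10 probes for these 8 genes, of 16593 genes named on the array. The set was proposed after the contrast of polyp with surrounding cells had been seen in these same arrays, so the differences of the 8 receptors below are a description, and no test is drawn on for them. The samples were CD45-enriched cecal cells of 3 mice of the strain HBUS, known as a transgenic line that makes the growth factor HB-EGF and a viral chemokine receptor in the gut epithelium. Both groups came from these same mice, so the surrounding cecum carries the transgenes too. The labels do not give age, sex or further treatment. From each mouse, cells of a serrated polyp, a saw-toothed epithelial outgrowth, and of the normal cecum further from it were measured, which gave 3 polyp and 3 surrounding samples that the design text pairs by mouse number.

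Receptors of this kind position lymphocytes. Sphingosine phosphate is high in blood and lymph and low in tissue, and S1pr1 lets lymphocytes follow it out, while the surface protein Cd69 binds S1pr1 and holds it inside the cell. Gpr183, also known as Ebi2, senses oxysterols, hydroxylated forms of cholesterol that stromal cells make, and guides B cells, T cells and innate lymphoid cells, among other places to the lymphoid tissue of the colon. P2ry10 and Gpr174 respond to lysophosphatidylserine. Gpr18 is abundant on intraepithelial T cells of the mouse gut and has been reported to bind N-arachidonyl glycine and resolvins, though its ligand is disputed. Gpr132, or G2a, has been linked to lysophosphatidylcholine and oxidised fatty acids, and Gpr171 has been paired with a neuropeptide, not a lipid.

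Some of these genes are neighbours. With the coding genes of the mouse RefSeq gene table ordered by start, Gpr18 and Gpr183 follow each other on chromosome 14. Ubac2 is the last to start before them and Timm8a2 the first after them, and where these genes end was not compared. P2ry10 and Gpr174 lie on chromosome X with only the paralog P2ry10b between them. Gpr171 lies on chromosome 3 beside P2ry14, and S1pr4 on chromosome 10 beside the G protein gene Gna15. Promoter windows, from 250 bases before to 50 bases after the gene's start, were listed by RefSeq (GRCm38.p6) for 6 of the 8 receptors. They are shown for Gpr18, the receptor with the largest difference, for its neighbour Gpr183, and for P2ry10, whose window held the most motif matches. The sequences run along the strand of the gene, and capitals mark the matches to the motifs searched. Gpr18 is at chr14:121915839-121916138 on the minus strand, Gpr183 at chr14:121965144-121965443 on the minus strand, and the P2ry10 window shown, one of a pair listed for that gene, at chrX:107089083-107089382 on the plus strand.
Gpr18: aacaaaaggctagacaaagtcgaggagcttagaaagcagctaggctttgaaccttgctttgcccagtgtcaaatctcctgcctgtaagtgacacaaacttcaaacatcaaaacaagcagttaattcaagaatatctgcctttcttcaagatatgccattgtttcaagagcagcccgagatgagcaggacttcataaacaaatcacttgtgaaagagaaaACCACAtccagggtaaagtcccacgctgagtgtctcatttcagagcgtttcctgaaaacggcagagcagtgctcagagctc
Gpr183: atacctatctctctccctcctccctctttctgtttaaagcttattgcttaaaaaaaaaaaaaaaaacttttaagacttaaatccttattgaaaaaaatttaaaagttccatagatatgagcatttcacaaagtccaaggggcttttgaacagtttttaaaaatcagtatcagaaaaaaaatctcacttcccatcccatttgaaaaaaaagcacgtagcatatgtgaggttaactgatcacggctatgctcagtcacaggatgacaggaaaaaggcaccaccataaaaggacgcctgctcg
P2ry10: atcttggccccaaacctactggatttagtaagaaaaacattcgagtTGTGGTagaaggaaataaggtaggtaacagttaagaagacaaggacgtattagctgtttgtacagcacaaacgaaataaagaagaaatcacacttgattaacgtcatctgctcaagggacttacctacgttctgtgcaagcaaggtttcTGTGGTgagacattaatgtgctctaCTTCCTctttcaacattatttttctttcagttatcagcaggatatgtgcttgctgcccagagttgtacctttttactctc

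The motifs were searched on both strands and were those of a pair of factor families active in lymphocytes, together with the TATA box. The RUNX core TGTGGT was matched in the windows of Gpr18, P2ry10 and Gpr132, and is found in 16.8% of all 32851 promoter windows. In Gpr18 it lies on the opposite strand 31 bases before the gene's start. The ETS core AGGAAG was matched in P2ry10 and Gpr132, against 35.4% of all windows. The TATA box TATAAA (13.6% of all windows) was matched in no window of the 6 receptors, and Gpr183, Gpr174 and S1pr4 held no match to any of the motifs. These counts describe letters in a window and were set against no test.

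Each sample was read on 1 array of an Illumina mouse BeadChip with 25697 probes, and between 12657 and 13796 probes per array had a detection p-value under 0.05, the lower end in the polyp sample of mouse 3. The number of arrays limits the precision. Values below are log2 intensities after background correction and normalisation, differences are polyp minus surrounding within a mouse, and SE is the standard error of the limma fit over 3 pairs. A gene was tested if its probe was detected on at least 3 of the 6 arrays, and of the 8 receptors 6 passed, without S1pr1 and S1pr4. A low value may mean fewer lymphocytes in a sample or less RNA of a gene per cell, which cannot be told apart here. Ptprc, the gene of CD45, was itself lower in the polyp samples (-0.99 ± 0.11 log2, SE, n = 3 pairs, limma adjusted p = 0.0052), though not with the pairing left out (limma adjusted p = 0.13). The difference of Ptprc was -0.35 in the authors' processed values, and the polyp array of mouse 3 did not detect it (detection p-value 0.13).

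**Figure D1:**
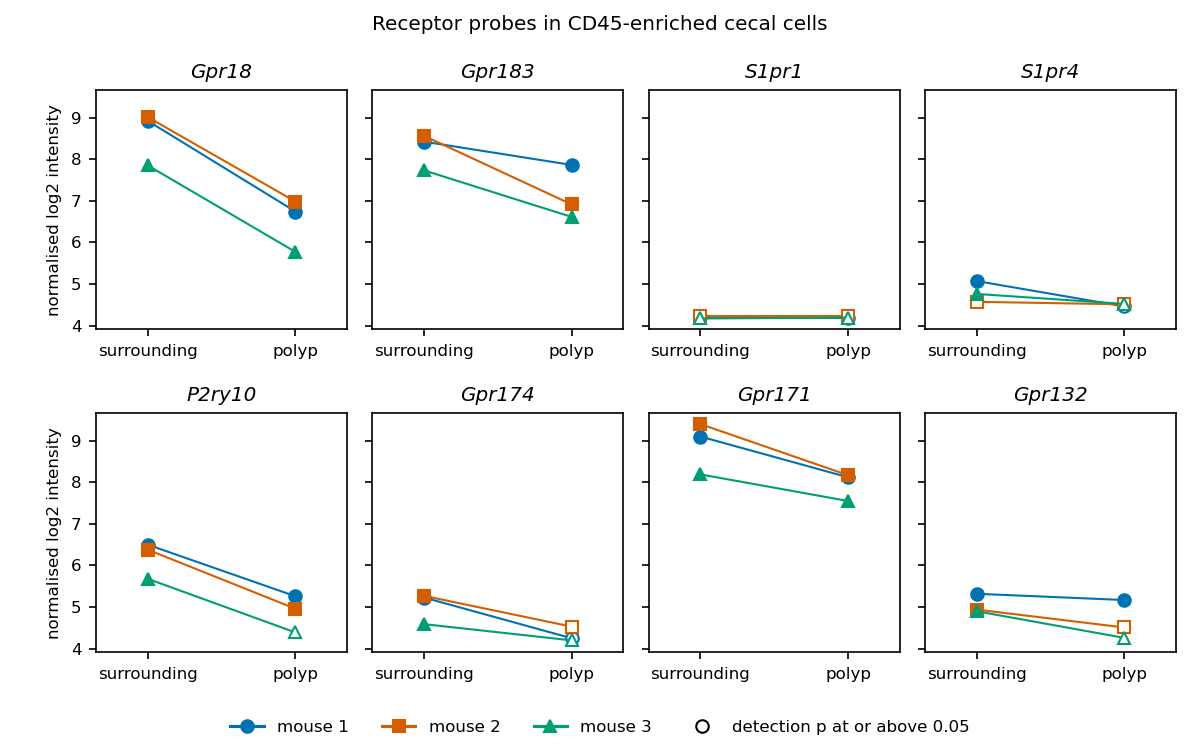
Normalised log2 intensity of the brightest probe of each receptor in surrounding and polyp samples, 1 panel a gene, with a line for each mouse and open symbols where the detection p-value was at or above 0.05. Gpr18 fell along nearly parallel lines in the 3 mice, S1pr1 lay at background on all 6 arrays, and mouse 3 gave the lowest polyp value of each tested receptor.

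Gpr18 had the largest difference of the 8 receptors. In mice 1, 2 and 3 its log2 intensity was 8.92, 9.01 and 7.85 in surrounding cells and 6.74, 6.98 and 5.77 in polyp cells. The groups did not overlap, and mouse 3 was the lowest in both tissues. The difference was -2.18, -2.03 and -2.09 in the 3 mice, a mean of -2.10 ± 0.09 (SE, n = 3 pairs), so that the signal was 4.28-fold lower in polyp samples. The level of the gene thus varied between mice far more (SD 0.64 in each group) than its difference did (SD 0.08). Among the 9246 genes tested, Gpr18 ranked 18 by the size of its fall and 3 by the p-value of the fit, ranks that belong to the contrast the set was chosen from. It was detected on all 6 arrays with a detection p-value of 0 at the file's 2 decimals. In the scanner table before any correction its signal ran from 117.8 to 229.2 in polyp and from 334.8 to 606.3 in surrounding samples.

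Gpr183 was about as bright as Gpr18 but less even. Polyp samples of mice 1, 2 and 3 had 7.86, 6.91 and 6.61, and surrounding samples 8.42, 8.56 and 7.73. The groups overlapped, since the polyp sample of mouse 1 lay above the surrounding sample of mouse 3. The difference within mice 1, 2 and 3 was -0.56, -1.64 and -1.12 (-1.11 ± 0.20, SE, n = 3 pairs, 2.15-fold lower). Mouse 1 thus had the smallest difference of Gpr183, while its neighbour Gpr18 differed about equally in the 3 mice (SD 0.08).

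The lysophosphatidylserine receptors were dimmer. The brightest P2ry10 probe had 5.26, 4.96 and 4.39 in polyp and 6.50, 6.38 and 5.68 in surrounding samples, without overlap, and the polyp array of mouse 3 did not detect it (detection p-value 0.19). Its difference was -1.24, -1.42 and -1.29 in the 3 mice (-1.32 ± 0.09, SE, n = 3 pairs, 2.49-fold lower). The value of mouse 3 rests on that background level, so the exact size there was not measured. Another probe of P2ry10, detected on all 6 arrays, differed by -0.78, -1.15 and -0.65 in the 3 mice (-0.86 ± 0.12). Its groups overlapped, with the polyp sample of mouse 1 (5.49) above the surrounding sample of mouse 3 (5.41). The remaining probe was detected on no array. Whether these probes also bind transcripts of the paralog P2ry10b was not tested. Gpr174 was detected on all 3 surrounding arrays, at 5.23, 5.27 and 4.59, and on no polyp array, where the values 4.25, 4.53 and 4.20 are background. Set against the lowest detected signal of each polyp array, Gpr174 was at least 1.31-fold lower there.

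Gpr171, the peptide receptor, was the brightest of the probes in surrounding samples, with 9.10, 9.40 and 8.19 in mice 1, 2 and 3, against 8.12, 8.17 and 7.55 in polyp samples. Brightness of different probes is no measure of their genes' relative levels. The groups did not overlap, though only narrowly, with 8.17 below 8.19, and the difference was -0.98, -1.22 and -0.64 (-0.95 ± 0.13, SE, n = 3 pairs, 1.93-fold lower). Gpr132 was close to background, with 5.17, 4.51 and 4.26 in polyp and 5.32, 4.94 and 4.90 in surrounding samples. It was detected on 1 of 3 polyp arrays, the groups overlapped, and the difference of -0.41 ± 0.12 (SE, n = 3 pairs) rests on background levels in the polyp samples of mice 2 and 3.

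The sphingosine phosphate receptors in the set gave little signal. The S1pr1 probe was detected on no array, with detection p-values from 0.57 to 0.91 and log2 values from 4.17 to 4.23, so these arrays give no level of the gene in either tissue. S1pr4 was detected in the surrounding samples of mice 1 and 3, at 5.07 and 4.76, and on no polyp array. Its mean over all 3 surrounding arrays, 1 of which did not detect it, was at least 1.12-fold above the polyp background. The other receptors of the family, listed with the pathway below, were likewise dim: S1pr3 and S1pr5 were detected on no array, and S1pr2 did not pass the test (-0.16 ± 0.12, SE, n = 3 pairs, limma adjusted p = 0.448).

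Over the 6 tested receptors the median difference was -1.03 and the range -2.10 to -0.41, against a median of 0.02 over all 9246 tested genes. Setting Gpr174 to its bound could not move this median, which Gpr183 (-1.11) and Gpr171 (-0.95) set. All 6 were lower in every mouse, as were 24.2% of tested genes, and in 4 of the 6 all polyp arrays lay below all surrounding arrays, as in 9.53% of tested genes. Both counts include Gpr174, whose polyp values are background. In mouse 3 its surrounding value (4.59) lay below the lowest detected value of the polyp array (4.70), so no direction was measured there. P2ry10 was counted by its brightest probe, while the groups of its other tested probe overlapped. In the limma fit 5 of the 6 fell and 0 rose at an adjusted p under 0.05, against 6.46% of tested genes that fell and 5% that rose (11.5% together, and 10.4% of all probes). A dim gene passed the detection filter here through its surrounding arrays, and the set was chosen from this contrast, so nothing is read from these counts. The polyp array of mouse 3 was the lowest of the 6 arrays for 6 of 6 receptors, against 19% of tested genes. It did not detect Gpr174, Gpr132 or the brightest P2ry10 probe, whose values there are background. The polyp array of mouse 3 also had the fewest detected probes, and its part in these low values was not tested.

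**Figure D2:**
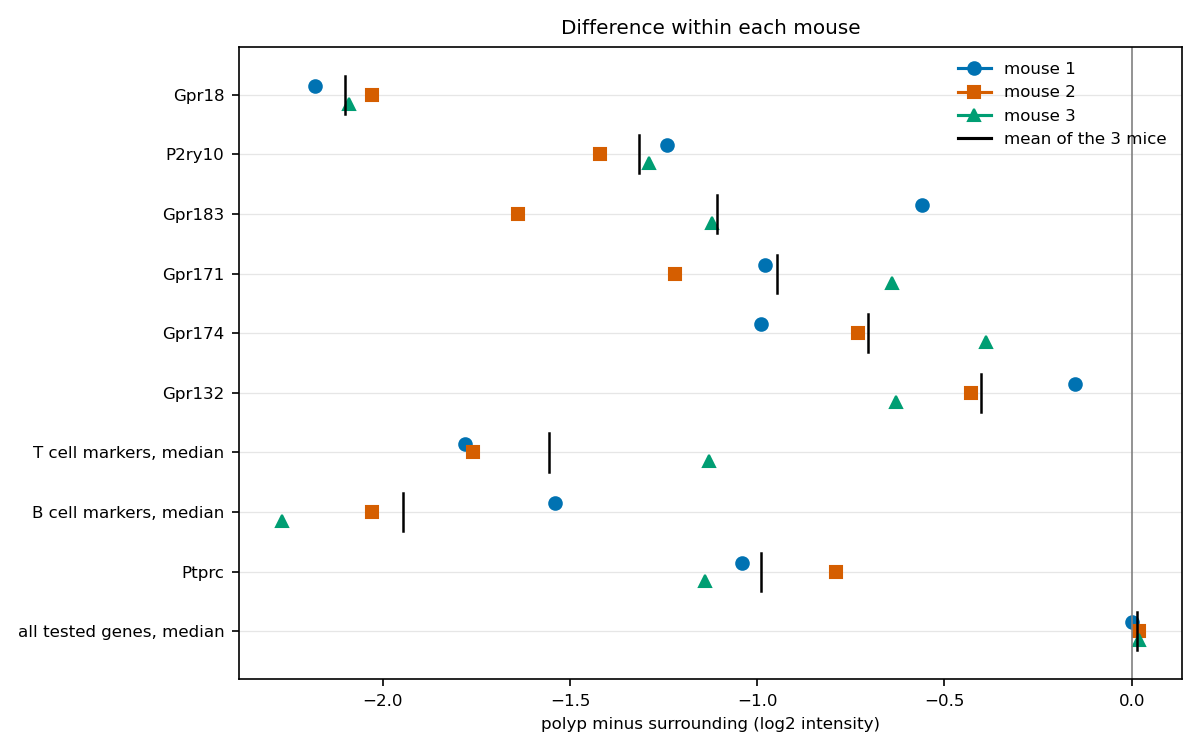
Polyp minus surrounding log2 intensity within each mouse (symbols) and the mean of the 3 mice (bars) for the 6 tested receptors, the median T cell marker, the median B cell marker, Ptprc and the median of all tested genes. Gpr18 lies near -2.10 in each mouse, while Gpr183 spreads from -1.64 to -0.56.

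The size of every tested receptor's difference depended on how background was treated. In the authors' processed values, which keep the background, Gpr18 differed by -1.45, Gpr183 by -0.78 and Gpr171 by -0.78, and the dimmer P2ry10 by -0.50, Gpr174 by -0.23 and Gpr132 by -0.12. With the pairing left out 0 of the 6 receptors passed in limma (5 at an unadjusted p under 0.05), and without mouse 2 only 1 did. Calls were lost over the whole array too: of 13409 probes, 183 and 412 passed in these fits, against 1399 in the main fit. Nothing is read from these receptor counts either.

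Markers of lymphocytes moved with the receptors. Of 14 tested T cell markers 13 fell, with a median of -1.55, and their summed signal ran from 1133 to 2476 in polyp and from 2664 to 8799 in surrounding samples. With the pairing left out, 0 of the 14 passed in limma (13 at an unadjusted p under 0.05). The bright T cell receptor chains Cd3g and Cd3d fell by 1.74 ± 0.14 (limma adjusted p = 0.00295) and 1.49 ± 0.16 (0.0052). Of 10 tested B cell markers 9 fell, with a median of -1.95 and summed signals of 648 to 799 in polyp and 1800 to 3426 in surrounding samples. With the pairing left out, 6 of these 10 were still lower in limma. The B cell receptor chain Cd79b fell by 2.24 ± 0.22 (limma adjusted p = 0.00427), while the adaptor Blnk differed by 0.07 ± 0.12 (limma adjusted p = 0.759). Cd8a and Pax5 were detected on no array. Only 1 of the 14 T cell markers, Cd8b1, had a larger fall than Gpr18, and 5 of the 10 B cell markers did. By mouse, the median T cell marker differed by -1.78, -1.76 and -1.13 and the median B cell marker by -1.54, -2.03 and -2.27. Gpr18 lay closer to the T cell median in mouse 1 (-2.18) and to the B cell median in mice 2 (-2.03) and 3 (-2.09). The marker lists here and below were chosen with earlier results of these data known, so their counts are a description. The part of the lymphocyte content in the receptors' differences was not tested.

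Other cell types moved differently in the same arrays. Of 4 tested dendritic cell markers 2 fell, with a median of -0.46 and summed signals of 146 to 208 in polyp and 237 to 317 in surrounding samples, while Clec9a and Xcr1 were detected on no array. Of 8 macrophage markers 0 passed in limma and 6 had an unadjusted p under 0.05 (median -0.52, summed signal 3393 to 12415 against 6201 to 11197). In polyp samples 6 of 8 neutrophil markers rose (median 1.41, 6980 to 8215 against 1489 to 2895), as did 10 of 10 endothelial markers (median 0.81, 4957 to 6072 against 2886 to 3430, with Kdr detected on no array) and 2 of 9 epithelial markers (median 0.21, 45828 to 47535 against 40412 to 42164). Epithelial genes thus gave strong signals in both tissues after the CD45 enrichment. The part of these cells in the receptors' differences was not tested.

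Genes that make, break down or transduce the receptors' ligands were taken from lists compiled for this comparison, which also hold other lipid receptors and linked leukocyte genes. Of 72 genes listed, 49 were tested, and 8 fell and 3 rose in polyp samples, 22.4% in all against 11.5% of tested genes, with a median difference of -0.11. Those that passed include Cd69 and the receptors Cnr2, Gpr34, Gpr65 and Ltb4r1, so the share is not that of ligand enzymes alone. The lists were chosen with earlier results of these data known, so nothing is read from this share. With the pairing left out, 0 of the 49 passed in limma (8 at an unadjusted p under 0.05), and 3 passed without mouse 2 and 2 without mouse 3.

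**Figure D3:**
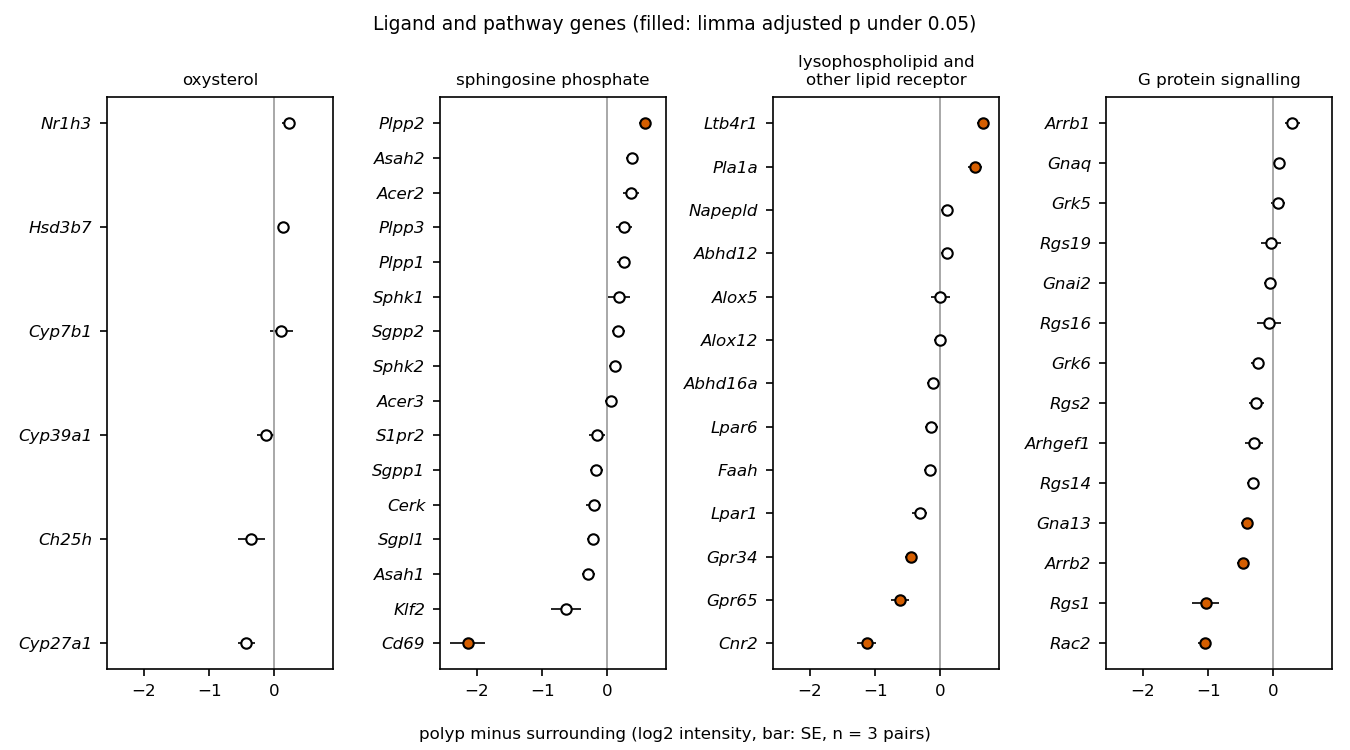
Polyp minus surrounding log2 intensity with SE (n = 3 pairs) of the 49 tested ligand and pathway genes, in 4 panels by list, with filled symbols where the limma adjusted p was under 0.05. The 6 oxysterol genes lie around 0, and Cd69, at -2.14, is the farthest from 0.

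Of the oxysterol genes 0 of 6 passed in limma (1 at an unadjusted p under 0.05), with a median of -0.01. Ch25h, the hydroxylase that starts the synthesis of the Gpr183 ligand, had 7.27, 6.71 and 6.07 in polyp and 7.00, 7.41 and 6.68 in surrounding samples of mice 1, 2 and 3. Mouse 1 went up and the other mice down, for a mean of -0.35 ± 0.20 (SE, n = 3 pairs, limma adjusted p = 0.311), and without mouse 1 the difference was -0.65 and passed (limma adjusted p = 0.00907). Cyp7b1, the next enzyme of that synthesis, differed by 0.66, -0.24 and -0.09 (limma adjusted p = 0.737), again with mouse 1 apart. Hsd3b7, which inactivates the ligand, was even between tissues, at 10.02, 10.02 and 10.11 in polyp and 9.84, 9.83 and 10.07 in surrounding samples (0.14 ± 0.09, limma adjusted p = 0.378). Mouse 1 was also the mouse with the smallest difference of Gpr183, while Gpr18 differed about equally in all mice. The median macrophage marker was likewise least different in mouse 1 (-0.08, against -0.43 and -1.05 in mice 2 and 3). A link between Gpr183 and these enzymes was not tested.

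Of 16 sphingosine phosphate genes 1 fell and 1 rose, with a median of 0.08. Cd69 had 9.04, 7.58 and 6.80 in polyp and 10.41, 10.48 and 8.96 in surrounding samples. It was lower in each mouse, with differences of -1.37, -2.89 and -2.16 (-2.14 ± 0.27, SE, n = 3 pairs, limma adjusted p = 0.00856), and the groups overlapped through the polyp sample of mouse 1. Cd69 did not pass without mouse 3 (limma adjusted p = 0.0553) or with a trended, robust prior (0.0608). Plpp2, a membrane phosphatase that can remove the phosphate of lysophospholipids and sphingosine phosphate, rose by 0.57 ± 0.09 (limma adjusted p = 0.0174), a call lost without mouse 2 (0.131) and without mouse 3 (0.0703). The kinases Sphk1 and Sphk2, which make sphingosine phosphate, differed by 0.18 ± 0.17 and 0.11 ± 0.09, and the lyase Sgpl1, which destroys it, by -0.22 ± 0.09 (limma adjusted p = 0.539, 0.487 and 0.191).

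Of 13 genes of lysophospholipids and other lipid receptors 3 fell and 2 rose. Cnr2, the cannabinoid receptor of leukocytes, had 5.54, 6.18 and 5.61 in polyp and 6.43, 7.12 and 7.18 in surrounding samples, without overlap (-1.13 ± 0.15, SE, n = 3 pairs, limma adjusted p = 0.0106). Gpr65, a proton-sensing relative of Gpr132, fell by 0.62 ± 0.14 (limma adjusted p = 0.0459), and Gpr34, another lysophosphatidylserine receptor, found on myeloid cells, by 0.45 ± 0.09 (0.0351). Ltb4r1, the leukotriene B4 receptor of neutrophils and other leukocytes, went the other way, from 6.47, 6.76 and 6.89 in surrounding to 7.04, 7.38 and 7.64 in polyp samples (0.65 ± 0.09, limma adjusted p = 0.0128). Pla1a, a phospholipase that releases lysophosphatidylserine, also rose, by 0.53 ± 0.10 (limma adjusted p = 0.0241), though by 0.17 with no call in the authors' processed values (0.0756). Abhd16a and Abhd12, which make and degrade lysophosphatidylserine, differed by -0.11 ± 0.09 and 0.10 ± 0.09 (limma adjusted p = 0.479 and 0.53). Gpr65, Gpr34, Ltb4r1 and Pla1a did not pass without mouse 2 or without mouse 3 (limma adjusted p from 0.0659 to 0.21), nor did Gpr65 with no filter on dim probes (0.102) or Pla1a with median scaling (0.0554). In the authors' processed values Cnr2 differed by -0.58, Gpr34 by -0.22 and Ltb4r1 by 0.41.

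Of 14 G protein signalling genes 4 fell and 0 rose. Rac2, a haematopoietic GTPase of cell migration, was 7.84, 7.71 and 6.70 in polyp and 8.74, 8.88 and 7.79 in surrounding samples (-1.05 ± 0.10, SE, n = 3 pairs, limma adjusted p = 0.00381). Rgs1, which dampens signals of chemoattractant receptors in lymphocytes, fell by 1.04 ± 0.21 (limma adjusted p = 0.0357), with mouse 1 again the smallest at -0.36 against -1.45 and -1.30. Arrb2, a beta-arrestin that silences activated receptors, fell by 0.47 ± 0.09 (0.0281), and Gna13, the G protein subunit that restrains migration, by 0.41 ± 0.09 (0.0426). Gnai2, the inhibitory subunit through which chemoattractant receptors act, differed by -0.06 ± 0.09 (limma adjusted p = 0.686). Rgs1, Arrb2 and Gna13 did not pass without mouse 2 or without mouse 3 (limma adjusted p from 0.097 to 0.246). The call of Rgs1 was also lost with a trended, robust prior (0.0974) and with no filter on dim probes (0.103), and that of Gna13 without mouse 1 (0.0701) and with median scaling (0.101).

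The receptors also differed in the course of their values over the 6 arrays. Likeness was measured as the root mean square difference of log2 values after each gene was centred on its own mean. The polyp minus surrounding difference is part of this measure, so genes with a like fall lie close by construction. The distances thus repeat in part the contrast that the set was chosen from. Among the 3 receptors detected on all 6 arrays, Gpr183 and Gpr171 were the closest (0.32), Gpr18 and Gpr171 differed by 0.60, and the neighbours Gpr18 and Gpr183 by 0.62. Among 9245 other tested genes the closest to Gpr18 was Gimap7, a GTPase of lymphocytes (0.27), with 7.07, 6.79 and 5.94 in polyp and 9.16, 8.66 and 7.59 in surrounding samples. Next came Ctsw, the cathepsin of cytotoxic lymphocytes (0.33), Klrd1, a lectin-like receptor of NK and cytotoxic T cells (0.34), H2-DMb2, a chain of the peptide loader of MHC class II (0.35), and Zcchc18 (0.36). The closest to Gpr183 were Cdk5r1, an activator of a neuronal kinase that 1 polyp array did not detect (0.13), Stap1, a signalling adaptor (0.14), and Rora, a nuclear receptor of innate lymphoid and T cells (0.16). S1pr1, not being tested, had no such comparison.

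**Figure D4:**
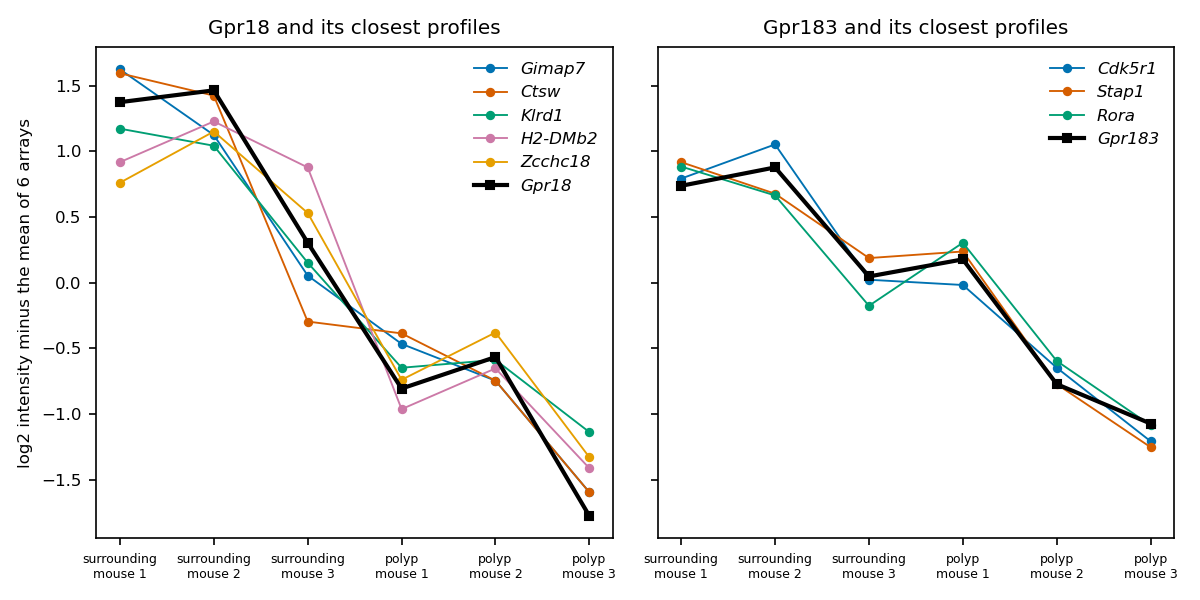
Log2 intensity minus each gene's own mean over the 6 arrays for Gpr18 and its 5 closest genes (left) and Gpr183 and its 3 closest genes (right); lines join the arrays of a gene and mark no order. Gpr18 drops from every surrounding to every polyp array, while Gpr183 in the polyp sample of mouse 1 stays near the surrounding sample of mouse 3.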

How the data were processed

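RNA of 3 polyp and 3 surrounding samples of CD45-enriched cells was hybridised to Illumina BeadChips, per the labels' protocols. Per the file headers, the deposited scanner table holds 1 intensity per probe and array, with background kept (lowest signal 79.2 to 84.9), and a detection p-value of 2 decimals. The other deposited table gives intensities as the authors processed them. GenomeStudio and limma 3.14.4 appear in the submitters' processing notes with no role.

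In R 4.3.3 with limma 3.58.1, intensities were corrected by normexp from the detection p-values (offset 16), quantile normalised and put on the log2 scale. Of 25697 probes, 13409 were detected (p under 0.05) on 3 or more arrays and were tested. Symbols came from the platform annotation, which named 1 gene for 23978 probes and did not list 1719, and 23962 were matched by gene ID to RefSeq (GRCm38.p6). Each gene was represented by its brightest tested probe. The model had terms for mouse and tissue (lmFit, eBayes, 4.04 prior degrees of freedom), with two-sided Benjamini-Hochberg values over all tested probes and a threshold of 0.05. Deviations from the group means correlated by 0.571, 0.564 and 0.614 within mice 1, 2 and 3; the pairing comes from the design text. The fit was tested on simulated data.

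The receptors and lists were chosen with earlier results of these data known. Genes named were all 8 receptors, pathway genes that passed with up to 3 per list that did not, in list order, the 5 genes closest to Gpr18 and 3 to Gpr183, the 2 brightest T and B cell markers and Ptprc. S1pr2, S1pr3, S1pr5, Cd8b1 and undetected markers were named after their values were seen.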

Additional observations from a re-analysis of the deposited data

How the results depend on the processing

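Of 13409 tested probes, 1399 changed, 620 higher and 779 lower, so that 44.3% of them rose; with arrays scaled to the same median 28.9% of 1407 rose. With mouse left out of the model (no replicate block), 183 probes, 0 ligand and pathway genes, 0 T cell markers and 6 B cell markers passed, against 1399, 11, 13 and 9 with it. Without each mouse in turn, from 412 to 1927 probes, 2 to 13 pathway genes, 10 to 14 T cell markers and 7 to 9 B cell markers passed, and the receptors' median difference ran from -1.14 to -0.76; the lowest count of probes and the smallest median came without mouse 2, and 534 probes passed without mouse 3. Fits without a mouse have fewer pairs. With detection required on all 6 arrays, 5 of the 6 B cell markers then tested fell. The receptors' median of -1.03 became -0.64 with no background correction and -0.64 in the authors' processed values. These settings gave near-identical values, with 1492 probes called in each, so they are no separate checks. All tested receptors stayed below 0 under each of the 12 alternatives, this pair included. Of named genes, 3 that had not passed turned sign: without a mouse, Cyp7b1 ran from -0.16 to 0.29, Sphk1 from -0.03 to 0.40 and Blnk from -0.08 to 0.15, each negative without mouse 1, and Blnk was at -0.02 with median scaling. Of 394 values of the 33 named genes other than the receptors, 50 lost their call and 1 gained it, and from 0 to 6 receptors passed; causes were not tested. Signal over background limits S1pr1, S1pr4, P2ry10, Gpr174 and Gpr132.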
